A study of Arabidopsis thaliana with 96 samples.

Results

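The chloroplast of Arabidopsis thaliana builds its ribosomes from proteins encoded in the nuclear and in the chloroplast genome, and the genes described here are the nuclear ones. They are 37 loci for nuclear-encoded plastid ribosomal proteins, of 32833 loci in the count table. They were chosen as a list of loci, with earlier results of these data known: 12 for the small and 25 for the large ribosomal subunit. All 37 passed the filter on low counts that left 19498 genes for testing, and the smallest count of any of them in any library was 200. Transcripts with a polyA tail were sequenced from leaf discs, 1 library per plant, at 3 light levels crossed with 4 nitrate doses. Light was 100 (low), 250 (mid) or 500 (high) µmol photons per square metre per second in days of 8 h light and 16 h dark. Nitrate was given in Hoagland's solution at 2, 5, 10 or 20 mM. Each of the 12 groups held 8 wild-type Col-0 plants of the same age, moved to clay at 10 days after germination and sampled as 2 leaf punches 30 days later. No mutant, transgene or untreated plant was part of the design, so each group is compared only with other light and nitrate levels. The leaf discs were not sorted, so each library mixes the cell types of the leaf.

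Plastid ribosomes are of the bacterial type. The nuclear-encoded proteins are made in the cytosol, imported into the plastid and assembled there on plastid ribosomal RNA, together with ribosomal proteins that the chloroplast genome encodes. The finished ribosomes translate the chloroplast messages, among them core subunits of the photosystems and the large subunit of Rubisco, and in leaves their genes are best known for high expression while chloroplasts are being built. Names starting with PRPS and PRPL mark the small- and large-subunit proteins with bacterial counterparts. PSRP marks proteins named as plastid-specific.

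Total counts per library ran from 9461056 to 18125373. The labels number the libraries, and every stretch of 24 numbers holds 2 libraries of each group. These 4 stretches are called code sets, and whether they are batches is not stated. Code set 1 stood apart: all 37 genes were lower there than in the other sets, against 30.5% of all tested genes, with a median log2 difference of -0.95 (edgeR with the code set as a term, a contrast added after the data were seen). Together the 37 genes took a median of 0.415% of all counts in code set 1 and 0.838% in code sets 2 to 4. Counts of genes that passed and median changes within code sets are therefore given beside the pooled ones for the main comparisons. Levels in CPM by group pool the code sets. Nothing in the labels says how plants were arranged, so p-values describe the spread between these plants only.

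Plastid ribosomal protein transcripts were lower in high light and higher at high nitrate. Summed over the 37 genes, their share of all counts had a median of 0.886% (range 0.247 to 1.40%) in 32 low-light libraries, 0.702% (0.200 to 1.40%) in 32 mid-light libraries and 0.550% (0.303 to 1.24%) in 32 high-light libraries. The ranges overlapped widely; each light level holds all nitrate doses and code sets. Over the doses the median share was 0.481% at 2 mM, 0.600% at 5 mM, 0.796% at 10 mM and 0.979% at 20 mM nitrate (n = 24 libraries each). The lowest group median, 0.387%, belonged to mid light with 2 mM nitrate, close to 0.471% in high light with 2 mM, and the highest, 1.04%, to low light with 20 mM. In mean level, 33 of the 37 genes peaked in low light with 20 mM and the other 4 in mid light with 20 mM. At the other end, 34 genes had their lowest mean in high light with 2 mM, 2 in mid light with 2 mM and PRPL34 (AT1G29070) in high light with 5 mM. That tally rested on plant 7 of mid light with 2 mM, which stood far above its group: without it, 35 genes were lowest in mid light with 2 mM and 2 in high light with 2 mM (an alternative added after the data were seen).

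**Figure D1:**
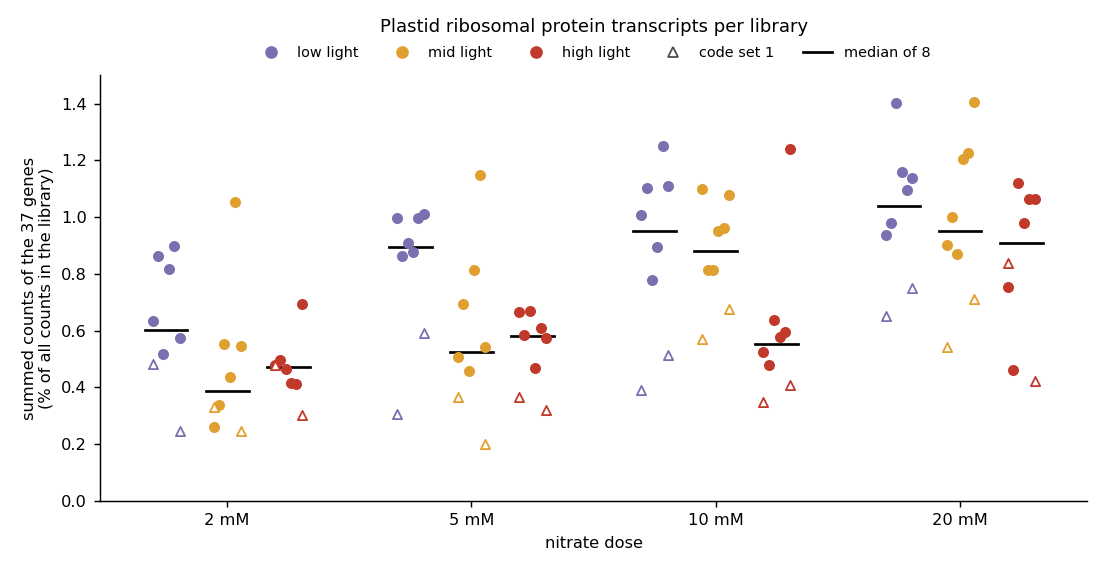
Share of all counts (%) taken by the 37 plastid ribosomal protein genes in each of 96 libraries, by nitrate dose and light level; triangles are code set 1 and bars are medians of 8 libraries. High-light libraries lie low at 2, 5 and 10 mM, with medians of 0.471, 0.580 and 0.552%, and reach 0.908% at 20 mM, while the triangles lie near the bottom of most groups.

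For light, 36 of the 37 genes fell in high against low light averaged over the doses, where 28.7% of all tested genes fell (edgeR quasi-likelihood test, Benjamini-Hochberg adjusted p under 0.05 over all tested genes). No member rose. The median log2 change of the 37 was -0.73, against 0.04 for all tested genes. PRPL34, a small protein of the large subunit, fell most, by 1.21 ± 0.21 on the log2 scale (SE; adjusted p = 7.20e-07). PRPS21 (AT3G27160), a small-subunit protein, followed at -1.08 ± 0.18 (adjusted p = 4.30e-07), and then PRPS6 (AT1G64510), PRPL4 (AT1G07320) and PRPS9 (AT1G74970) at -1.02, -0.99 and -0.95. PRPS1 (AT5G30510), whose bacterial counterpart brings messenger RNA to the small subunit, was the one gene that did not pass, at -0.20 ± 0.10 (adjusted p = 0.0878). The 5 smallest changes that passed were those of PRPL1 (AT3G63490), PRPL31 (AT1G75350), PRPL12C (AT3G27850), PRPL10 (AT5G13510) and PRPL24 (AT5G54600), between -0.45 and -0.55. In leaf discs, fewer cells of a type and less RNA per cell cannot be told apart.

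Within the code sets the light change kept its sign in all genes except PRPS1 in code set 1, but not its size. The median log2 change of the 37 was -0.41 in code set 1, -1.12 in code set 2, -0.77 in code set 3 and -0.60 in code set 4, and 2, 37, 36 and 9 genes passed the test there. Of all tested genes, 12.5, 26.6, 19.9 and 14.7% fell in these sets, so in code set 1 the share of the 37 was below that of all genes. Without code set 1, all 37 fell, as did 31.5% of all genes, with a median of -0.81. PRPS1 had a log2 change of 0.13 in code set 1. With the code set as a term all 37 fell, PRPS1 included, at a median of -0.69, as did 30.7% of all genes.

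Between neighbouring light levels the median change was negative at both steps in the pooled fit. How it was divided differed between code sets, and a difference between the steps was not tested. Mid against low light gave a median log2 change of -0.31, and 1 gene, PRPS9, passed the test, against 9.57% of all tested genes that fell. That count depended on the code sets: 31 genes passed with the code set as a term (14.4% of all genes), 12 without code set 1 (15.2%), 37 within code set 2 (18.2%) and 0 in code sets 1, 3 and 4 (0.443, 0.119 and 0.187%). In code set 4 the median change of this step was 0.00. Plant 7 of mid light with 2 mM, far above its group, also bore on it: without that plant 27 genes fell in mid against low light (13.1% of all genes), and 3 fell without plant 8 of high light with 10 mM (9.89%), a share near that of all genes. High against mid light gave a median of -0.42, with 27 genes lower where 17.6% of all genes were lower. With the code set as a term 36 were lower, against 21.6% of all genes, but within single sets 0, 2, 3 and 0 passed, where 1.63, 4.95, 9.48 and 5.05% of all genes were lower, and 10 passed without plant 7 of mid light with 2 mM, where 15.1% did.

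For nitrate, all 37 genes rose at 20 against 2 mM averaged over the light levels, where 28.7% of all tested genes rose. The median log2 change was 1.18, against -0.06 for all tested genes. PRPL34 again changed most, at 1.60 ± 0.24 (adjusted p = 4.70e-08). Next were PRPS21, PRPL5 (AT4G01310), PRPS6 and PRPL13 (AT1G78630), at 1.49, 1.46, 1.44 and 1.44. PRPS1 changed least, at 0.70 ± 0.12 (adjusted p = 9.70e-07), below PRPL1 at 0.76 and PRPL29 (AT5G65220) at 0.78. The nitrate change was found in every code set: 37, 37, 37 and 35 genes rose in sets 1 to 4, with medians of 1.40, 1.14, 1.40 and 1.06. Of all tested genes, 20.4, 22.9, 21.1 and 8.38% rose there.

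**Figure D2:**
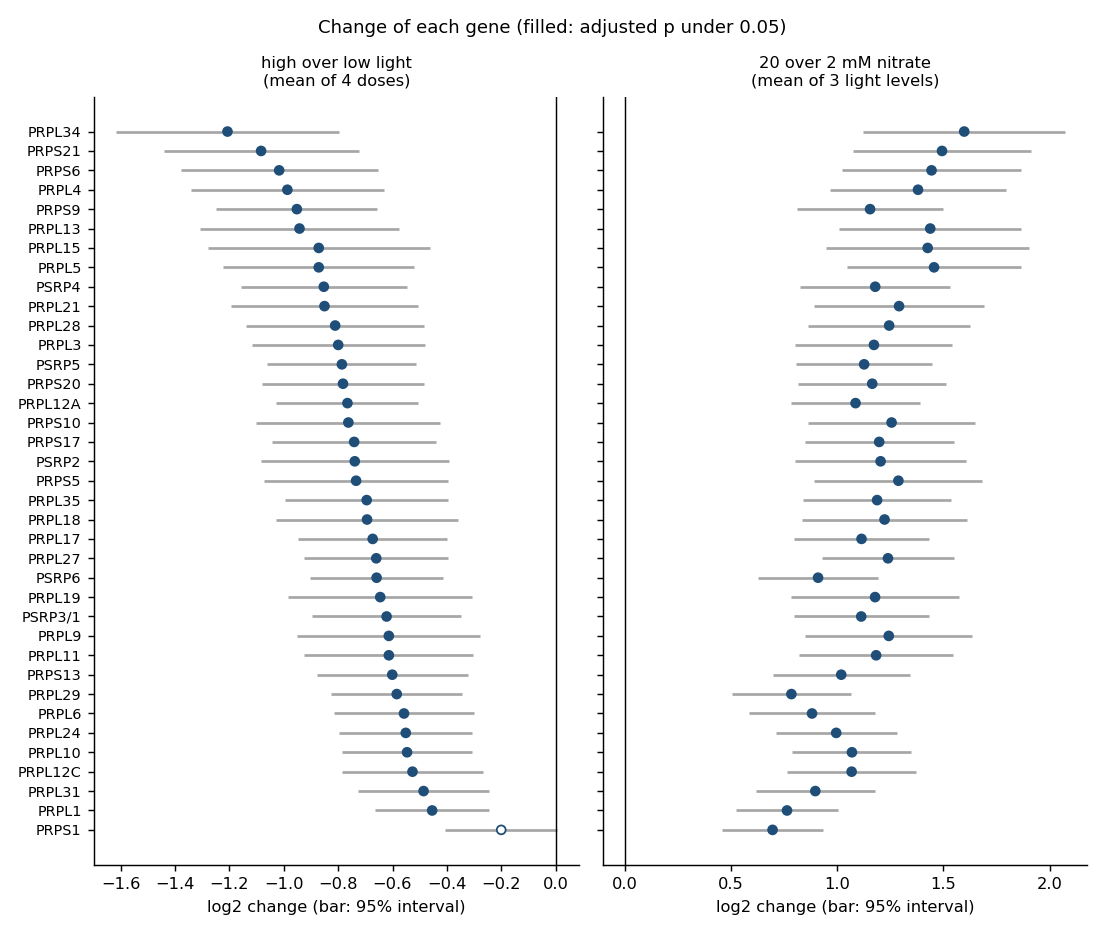
Log2 change of each of the 37 genes in high over low light (left panel) and at 20 over 2 mM nitrate (right panel), with 95% intervals and genes sorted by the light change; filled points passed an adjusted p under 0.05. All points lie below 0 on the left and above 0 on the right, with PRPL34 and PRPS1 at opposite ends of both.

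These sizes depend on how libraries are scaled. Scaling by library totals alone moved the median of all tested genes to 0.27 for light and to -0.37 for nitrate. It also moved the split of calls over all genes to 10827 higher and 3106 lower for light, against 6596 and 5596 with the main scaling, and to 3081 higher and 11261 lower for nitrate, against 5597 and 6746. The members' medians became -0.51 for light and 0.92 for nitrate, and 36 fell and 37 rose, where 15.9% of all genes fell and 15.8% rose. PRPS1 then stood at 0.03 for light.

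The light difference was also taken at each nitrate dose. At 2, 5, 10 and 20 mM nitrate, 23, 36, 21 and 0 genes fell in high against low light, with median log2 changes of -0.76, -1.01, -0.81 and -0.30. Of all tested genes, 20.9, 21.6, 10.8 and 1.39% fell at these doses. At 10 mM the count was 36 without plant 8 of high light, which stood far above its group, against 15.4% of all genes, and at 2 mM it was 36 without code set 1, against 26.6% of all genes. At 20 mM nitrate no member passed at an unadjusted p under 0.05 either, and DESeq2 and limma-voom also called 0, against 2.15 and 1.33% of all genes. The 37 changes at that dose were nonetheless all negative, between -0.44 and -0.08, and the 95% interval for PRPL34 ran from -1.25 to 0.36. A smaller change at 20 mM was not shown by a test of the difference: the nitrate change in high light minus that in low light passed in 0 of 37 genes, where 6.03% of all tested genes passed. That difference was positive in all 37 genes (median 0.50), but it was negative in 5 genes when libraries were scaled by totals alone, in 1 with limma-voom, in 20 within code set 1 and in 2 within code set 2. Its largest value was 0.80 ± 0.51 in PRPS21 (adjusted p = 0.365). No member had an unadjusted p under 0.05 for it, and DESeq2 and limma-voom called 0, against 7.74 and 5.7% of all genes. The F test over all light by nitrate interaction terms called 0 members, and 12.7% of all genes, with 0 members at an unadjusted p under 0.05. It called 9 members with the code set as a term (25.1% of all genes), 16 within code set 2 (10.2%) and 0 by DESeq2 (17.7%) or limma-voom (8.51%).

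Seen from the nitrate side, 3 genes rose at 20 against 2 mM in low light, 37 in mid light and 37 in high light. Of all tested genes, 3.54, 21.2 and 24.7% rose at these light levels. The medians of the 37 were 0.85, 1.35 and 1.33. The 3 genes that passed in low light were PRPL27 (AT5G40950), PRPL5 and PRPL10, and all 37 had an unadjusted p under 0.05 there. With the code set as a term all 37 rose in low light, as did 7.38% of all genes; DESeq2 called 16 (4.61% of all genes) and limma-voom 13 (4.27%). The count in low light was also 19 without plant 7 of mid light with 2 mM (4.19% of all genes) and 15 without plant 8 of high light with 10 mM (4.17%). Within high light no single step of dose passed in any of the 37 genes. The median log2 change was 0.16 for 5 against 2 mM, 0.44 for 10 against 5 mM and 0.69 for 20 against 10 mM, and 0, 3 and 28 genes had an unadjusted p under 0.05. Of all tested genes, 2.52, 1.68 and 2.25% rose at these steps. DESeq2 called 0 genes at each of the 3 steps (3.7, 3.45 and 3.26% of all genes), and limma-voom 0, 0 and 3 (3.77, 0.749 and 3.41%). With the code set as a term, 33 genes (and 7.46% of all genes) rose at the step from 10 to 20 mM and 0 at each of the lower steps (4.99 and 5.09% of all genes), and without plant 8 of high light with 10 mM 35 rose at that step (9.27% of all genes).

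**Figure D3:**
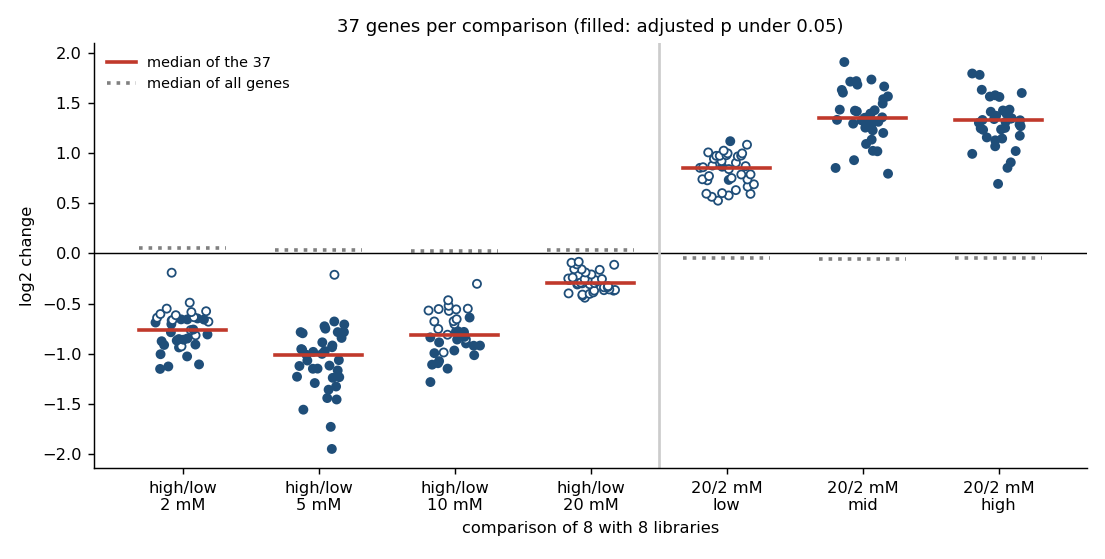
Log2 changes of the 37 genes in high over low light at each nitrate dose (left 4 columns) and at 20 over 2 mM nitrate at each light level (right 3 columns), 8 against 8 libraries each; filled points passed an adjusted p under 0.05, solid bars are medians of the 37 and dotted bars medians of all tested genes. The light points lie nearest to 0 at 20 mM (median -0.30), and the nitrate points are lowest in low light (median 0.85).

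The members at the ends of the order show what these changes were in levels, given in CPM, counts scaled to the same total of 1e+06 in each library and adjusted by TMM factors. PRPL34 had a lowest, median and highest level of 18.5, 48 and 59.9 CPM in high light with 5 mM nitrate, against 56.7, 190 and 240 CPM in low light with 5 mM. The groups overlapped only in that the lowest low-light plant lay below the highest high-light plant, and the log2 change was -1.95 ± 0.43 (adjusted p = 0.000132). PRPS1 had 206, 344 and 382 CPM in high light with 5 mM, against 192, 407 and 444 CPM in low light with 5 mM, and these groups overlapped over most of their range. Its log2 change there was -0.21 ± 0.21 (adjusted p = 0.417).

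The nitrate change of the same genes is shown by the high-light groups. There, PRPL34 had 66.5, 176 and 238 CPM at 20 mM nitrate, against 25.1, 43.2 and 98.9 CPM at 2 mM (log2 change 1.80 ± 0.42, adjusted p = 0.000366). PRPS1 had 249, 469 and 595 CPM at 20 mM in high light, against 185, 276 and 333 CPM at 2 mM (0.69 ± 0.21, adjusted p = 0.00459). Both genes had higher medians at 20 mM with some overlap of plants. The ratio of PRPL34 to PRPS1 within a library, a pair chosen after their changes were seen, had a median of 0.140 (range 0.0763 to 0.167) in high light with 5 mM and 0.451 (0.295 to 0.548) in low light with 5 mM, with no overlap. High and low light overlapped in this ratio at the other doses, with medians of 0.154 and 0.347 at 2 mM, 0.167 and 0.430 at 10 mM, and 0.371 and 0.466 at 20 mM. In high light with 20 mM nitrate the median ratio was 0.371, against 0.154 with 2 mM.

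Next to PRPL34 in size of light change stood 3 small-subunit genes and PRPL4. PRPS21 had 34.4, 76.7 and 97.9 CPM in high light with 5 mM, against 89.5, 252 and 300 CPM in low light with 5 mM, where the lowest low-light plant lay within the high-light range. PRPS6 had 38.1, 91.2 and 116 CPM in high light with 5 mM, against 86.3, 281 and 313 CPM in low light with 5 mM, and again the lowest low-light plant lay within the high-light range. In the same groups PRPS9, whose bacterial counterpart reaches into the decoding centre, had 54.2, 86.1 and 93.1 CPM in high light, against 80.6, 214 and 277 CPM in low light. As a class, the small-subunit genes fell in 11 of 12 cases with light and rose in 12 of 12 with nitrate, with median log2 changes of -0.75 and 1.19. Of all tested genes 28.7% fell with light and 28.7% rose with nitrate.

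Among the large-subunit genes, 25 of 25 fell with light and 25 of 25 rose with nitrate, against 28.7% of all tested genes in each case. Their median log2 changes were -0.67 and 1.18, and a difference between the subunits was not tested. PRPL4, whose bacterial counterpart lines the tunnel through which the new protein leaves, had 42.8, 117 and 133 CPM in high light with 5 mM, against 87, 316 and 349 CPM in low light with 5 mM. PRPL5 had 82.2, 227 and 278 CPM at 20 mM nitrate in high light, against 42.2, 66.9 and 111 CPM at 2 mM. PRPL13 had 139, 310 and 407 CPM at 20 mM nitrate in high light, against 47.4, 92.8 and 168 CPM at 2 mM. In each of these pairs the medians stood well apart and the ranges overlapped.

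PRPL1, whose bacterial counterpart forms the movable arm beside the site where spent transfer RNA leaves, was the large-subunit gene with the smallest change. It had 199, 244 and 276 CPM in high light with 5 mM, against 197, 455 and 512 CPM in low light with 5 mM, so that the lowest low-light plant lay just below the lowest high-light one (log2 change -0.75 ± 0.21, adjusted p = 0.0031). PRPL24 had 112, 176 and 190 CPM in high light with 5 mM, against 131, 302 and 345 CPM in low light with 5 mM, with the lowest low-light plant inside the high-light range (-0.78 ± 0.25, adjusted p = 0.00833). The small nitrate changes of PRPL29, PRPL6 (AT1G05190) and PRPL31 showed in the same way. PRPL29 had 151, 307 and 419 CPM at 20 mM nitrate in high light, against 119, 155 and 247 CPM at 2 mM. In high light PRPL6 had 169, 344 and 455 CPM at 20 mM against 105, 161 and 253 CPM at 2 mM, and PRPL31 had 124, 243 and 319 CPM at 20 mM against 85.2, 116 and 165 CPM at 2 mM. All 3 rose in high light with ranges that overlapped.

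The stalk of the large subunit, which recruits translation factors, is formed by PRPL10 and several copies of PRPL12, and PRPL11 (AT1G32990) lies at its base. PRPL10 had 89.9, 128 and 139 CPM in high light with 5 mM, against 106, 224 and 266 CPM in low light with 5 mM. PRPL12 comes from a family of 3 genes side by side on chromosome 3, of which PRPL12B, not among the 37, had 0 counts in all 96 libraries. PRPL12A (AT3G27830) fell by 0.77 ± 0.13 on the log2 scale with light (adjusted p = 8.49e-07) and PRPL12C by 0.53 ± 0.13 (adjusted p = 0.000429). With nitrate they rose by 1.09 and 1.07. PRPL12A had 81.9, 139 and 151 CPM in high light with 5 mM, against 142, 312 and 335 CPM in low light with 5 mM. PRPL12C had 96.4, 175 and 210 CPM in high light with 5 mM, against 107, 297 and 350 CPM in low light with 5 mM. In both genes the lowest low-light plant lay within the high-light range. The difference between them was not tested, and how the authors' counting divided reads between them is not known. Their coding sequences share 93.4% of aligned bases with an unbroken identical run of 255 bases. Of 564 aligned bases 37 differ, and the stretch of 120 coding bases without gaps that holds the most differences is shown. Capitals mark its 10 differing bases (RefSeq, TAIR10.1, plus strand, PRPL12A coding bases 141 to 260 and PRPL12C coding bases 129 to 248).
PRPL12A: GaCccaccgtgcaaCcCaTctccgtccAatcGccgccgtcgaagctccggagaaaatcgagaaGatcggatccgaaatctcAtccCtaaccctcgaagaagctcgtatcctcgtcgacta
PRPL12C: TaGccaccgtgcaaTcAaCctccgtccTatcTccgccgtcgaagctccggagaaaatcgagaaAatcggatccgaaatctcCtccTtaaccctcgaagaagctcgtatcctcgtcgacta

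The genes of the 5 plastid-specific proteins all fell with light and rose with nitrate, against 28.7% of all tested genes in each case. Their medians were -0.74 and 1.13, against -0.71 and 1.19 for the 32 bacterial-type genes. PSRP4 (AT2G38140), a small-subunit protein, fell most of them with light, by 0.85 ± 0.16 (adjusted p = 2.24e-06), and had 33.5, 61.3 and 68.4 CPM in high light with 5 mM, against 58.3, 154 and 185 CPM in low light with 5 mM. PSRP3/1 (AT1G68590), in the small subunit, fell least, at -0.62 ± 0.14 (adjusted p = 8.76e-05), and had 53.9, 109 and 122 CPM in high light with 5 mM, against 76.5, 200 and 231 CPM in low light with 5 mM. With nitrate, PSRP2 (AT3G52150) of the small subunit rose most, by 1.20 ± 0.21, and PSRP6 (AT5G17870) of the large subunit least, by 0.91 ± 0.14. PSRP2 had 86, 231 and 302 CPM at 20 mM nitrate in high light, against 56, 88.4 and 143 CPM at 2 mM. PSRP5 (AT3G56910) of the large subunit had 125, 270 and 405 CPM at 20 mM in high light, against 76.4, 102 and 164 CPM at 2 mM, and PSRP6 had 68.3, 163 and 219 CPM at 20 mM, against 47, 74.6 and 105 CPM at 2 mM. The medians of all 3 were higher at 20 mM, and each gene's ranges overlapped.

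**Figure D4:**
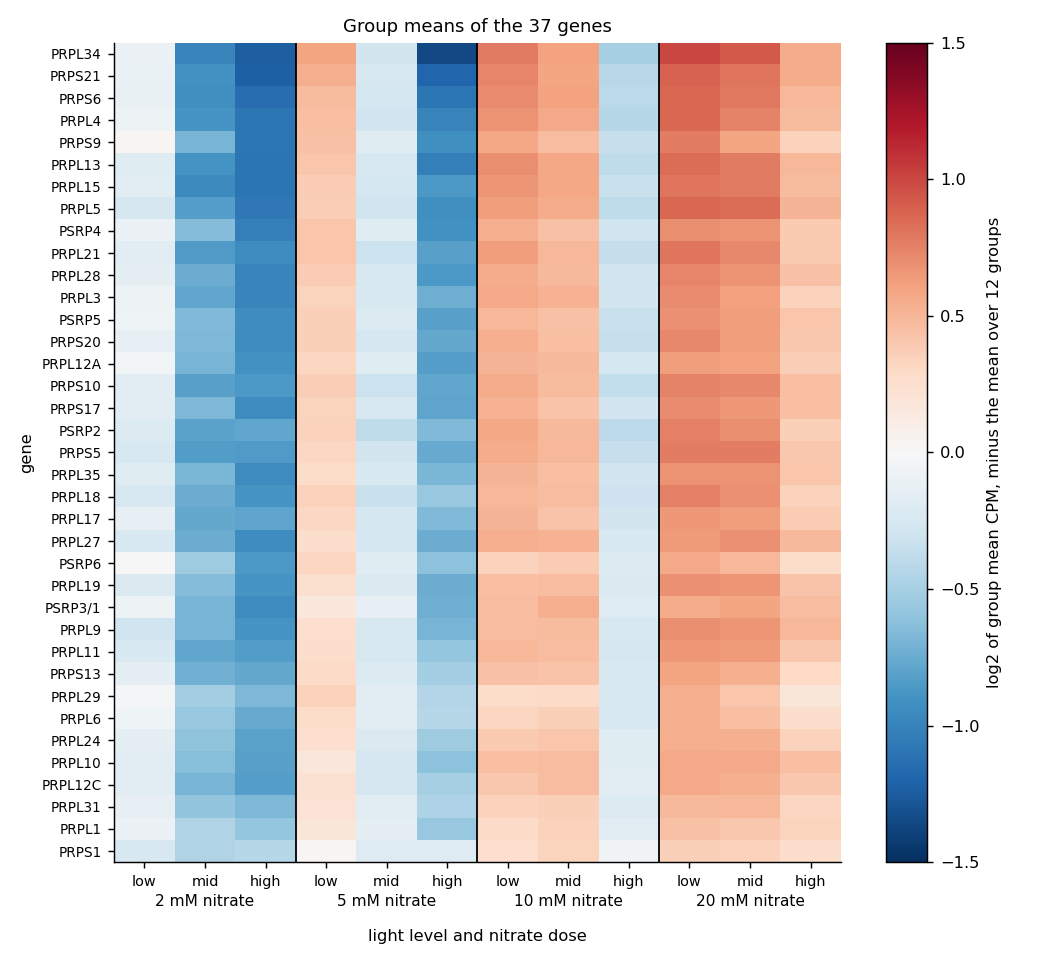
Group mean level of each of the 37 genes on a log2 scale, relative to the gene's own mean over the 12 groups; columns run by nitrate dose and, within a dose, from low to high light, and rows are sorted by the light change. The rows share 1 pattern, palest at the bottom (PRPS1) and strongest at the top (PRPL34), with high light at 2 and 5 mM and mid light at 2 mM low, and low and mid light at 20 mM high; mid light at 2 mM includes plant 7, without which its mean share is 0.388% in place of 0.471%.

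The 16 genes not yet described by group lay between these ends. In order of their light change they were PRPL15 (AT3G25920), PRPL21 (AT1G35680), PRPL28 (AT2G33450), PRPL3 (AT2G43030), PRPS20 (AT3G15190), PRPS10 (AT3G13120), PRPS17 (AT1G79850), PRPS5 (AT2G33800), PRPL35 (AT2G24090), PRPL18 (AT1G48350), PRPL17 (AT3G54210), PRPL27, PRPL19 (AT5G47190), PRPL9 (AT3G44890), PRPL11 and PRPS13 (AT5G14320), at log2 changes from -0.87 to -0.60. With nitrate the same genes rose by 1.02 to 1.43. PRPL15 was also the gene that set code set 1 apart most, with a log2 difference of -1.36 there, and PRPL1 the least, at -0.60. PRPL27, which in bacteria reaches toward the site of peptide bond formation, rose by 1.24 ± 0.16 with nitrate (adjusted p = 5.13e-10), the smallest adjusted p of the 37.

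Levels of different genes were compared per length. Mean level over the 96 libraries ran from 164 CPM per kb of coding length in PRPS5 to 522 in PRPS17, a 3.19-fold range, with PRPL29 at 521 and PSRP5 at 478 next to the top. Per kb of exon length the range was 3.05-fold, PRPS17 and PRPL29 were again highest and PRPS10 was lowest. PRPL34, with the largest changes, ranked 26 of 37 per kb of coding length, and PRPS1, with the smallest, ranked 20. The highest group mean was 5.12-fold the lowest in PRPL34 and 1.75-fold the lowest in PRPS1.

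The 37 genes moved together from plant to plant as well. Over pairs of genes, the correlation of log2 CPM across the 96 libraries had a median r of 0.98 and a lowest r of 0.90. After the group means were taken away the median was still 0.97 and the lowest 0.91, and after code set means were taken away too, 0.94 and 0.84. These correlations share libraries and their scaling, and are a description only. PRPS1 was the least like the others over all libraries (median r 0.94 with the rest) and PRPL29 after removal of group and code set means (0.90).

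The order of the genes by size of change recurred in separate plants. Each code set holds different plants, and over the 6 pairs of code sets Spearman's rho of the 37 light changes lay between 0.77 and 0.91, and of the 37 nitrate changes between 0.70 and 0.95. PRPL34 ranked 1, 1, 1 and 3 of 37 by size of fall with light in code sets 1 to 4, and PRPS1 was last in all 4. With nitrate PRPL34 ranked 2, 1, 1 and 1, and PRPS1 34, 37, 37 and 37. Both genes were picked as the ends of the pooled order, to which every code set contributes. Their ranks within the sets are therefore a description and not an independent check.

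**Figure D5:**
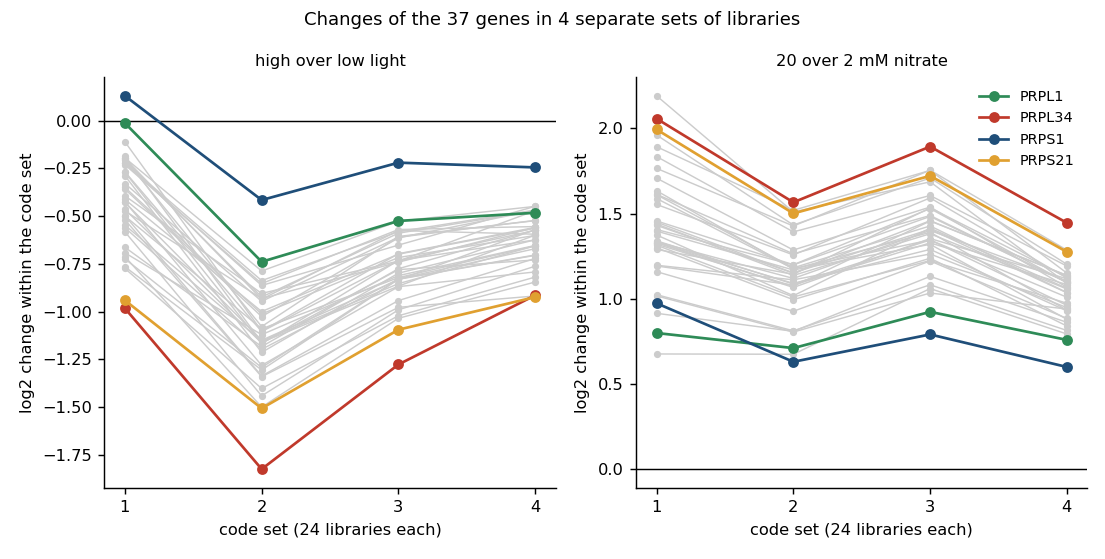
Log2 change of each of the 37 genes within each of the 4 code sets (24 libraries each), in high over low light (left) and at 20 over 2 mM nitrate (right); each line is a gene and 4 are coloured. The lines keep much of their order, with PRPL34 among the most changed and PRPS1 among the least. These genes were picked from the pooled changes. The median light change runs from -0.41 in code set 1 to -1.12 in code set 2.

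Upstream sequences are shown for the 2 genes with the largest and the 2 with the smallest light change, 150 bases directly before the gene start (RefSeq, TAIR10.1, written 5′ to 3′ on the gene's strand). PRPL34 lies on the plus strand of chromosome 1 (window chr1:10149641-10149790), PRPS21 on the plus strand of chromosome 3 (chr3:10017171-10017320), PRPS1 on the minus strand of chromosome 5 (chr5:11621299-11621448) and PRPL1 on the plus strand of chromosome 3 (chr3:23444053-23444202). Capitals mark matches to the motifs searched on both strands: TGGGCC and TGGGCT (site II elements), AAACCCTAA (telo-box), CACGTG (G-box), CCAATC and GATAAG.
PRPL34: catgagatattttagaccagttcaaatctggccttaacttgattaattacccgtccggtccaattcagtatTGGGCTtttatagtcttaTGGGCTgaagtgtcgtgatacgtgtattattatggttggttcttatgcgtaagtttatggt
PRPS21: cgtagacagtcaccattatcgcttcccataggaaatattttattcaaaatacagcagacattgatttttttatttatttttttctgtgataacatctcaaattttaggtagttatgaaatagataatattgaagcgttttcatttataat
PRPS1: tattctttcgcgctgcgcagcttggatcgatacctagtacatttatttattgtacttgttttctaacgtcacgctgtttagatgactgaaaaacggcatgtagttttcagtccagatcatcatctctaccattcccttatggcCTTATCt
PRPL1: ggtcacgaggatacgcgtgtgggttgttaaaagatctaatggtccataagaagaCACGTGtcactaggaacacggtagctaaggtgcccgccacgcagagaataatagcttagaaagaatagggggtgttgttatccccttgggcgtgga
PRPL34 held 2 matches to TGGGCT, PRPS1 a match to GATAAG and PRPL1 a G-box, and PRPS21 none of these in its window. In 250 bases upstream, a site II element of either form was found in 13 of the 37 genes (35.1%), against 19.2% of 27443 genes. TGGGCC was found in 11 (29.7%, against 13.7% of all genes), TGGGCT in 7 (18.9%, against 12.3%) and GATAAG in 9 (24.3%, against 12.3%). The G-box was found in 3 (8.11%, against 6.49%) and CCAATC in 4 (10.8%, against 10.2%), and the telo-box in 0 of 37, against 2.61% of all genes. These are letter matches and were not tested.

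Other genes of the plastid gene expression pathway mostly rose with nitrate, while their light changes went both ways in 3 of the lists. Of 10 plastid translation factors, 10 rose with nitrate (median log2 change 0.78) and 8 fell with light (-0.41). Among all tested genes 28.7% rose with nitrate and 28.7% fell with light. SVR9L1, an initiation factor of the IF3 type, fell by 1.20 ± 0.15 with light (adjusted p = 7.72e-11), and TUFA, the plastid elongation factor Tu, rose by 0.80 ± 0.11 with nitrate (adjusted p = 5.55e-09). Among the related ribosomal genes outside the 37, PSRP1, a factor that in plastids binds idle ribosomes, fell by 1.40 ± 0.21 with light and rose by 1.30 ± 0.24 with nitrate. PSRP3/2, the other PSRP3 gene, fell by 0.45 ± 0.08 and rose by 0.43 ± 0.09.

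Of 12 listed plastid ribosome assembly genes, 12 rose with nitrate (median 0.58), and 5 fell and 2 rose with light (-0.12). The 2 that rose with light were RH3, an RNA helicase, at 0.34 ± 0.10, and RAP at 0.23 ± 0.09. RBF1, a ribosome-binding factor, fell by 0.61 ± 0.12. The list counts EMB1688, which RefSeq describes as a minichromosome maintenance family protein and whose place in it is doubtful; without it 11 of 11 rose with nitrate, and 4 fell and 2 rose with light. Of 14 plastid transcription genes, 14 rose with nitrate (0.66), and 4 fell and 1 rose with light (-0.13). The one that rose was RPOTP, the phage-type plastid RNA polymerase, at 0.40 ± 0.10. Of 16 import and folding genes, 14 rose with nitrate (0.85), and 8 fell and 1 rose with light (-0.25). CLPC1, a chaperone of the import machinery, was the one that rose, at 0.29 ± 0.05. Over all tested genes 28.7% rose with nitrate and 28.7% fell with light. The 4 of 14 transcription genes that fell with light lie near the latter share.

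Cytosolic ribosomal protein genes, the counterpart outside the plastid, mostly rose with nitrate, and with light more of them fell than rose. Of 42 tested genes of 43 listed, 39 rose and 1 fell with nitrate, with a median of 0.68. With light 21 fell and 3 rose, with a median of -0.21, against -0.73 for the 37 plastid genes. Of all 19498 tested genes 5596 fell and 6596 rose with light, and 6746 fell and 5597 rose with nitrate. The 3 that rose with light were RPS9C at 1.37 ± 0.19, RPSaB at 0.63 ± 0.14 and RPS28A at 0.30 ± 0.08, and RPS9C was also the one that fell with nitrate, at -0.87 ± 0.22. Nuclear photosystem and electron transport genes, 30 in number, had a median of -1.01 with light, where 29 fell, and 0.94 with nitrate, where 30 rose. The interaction of nitrate with light passed in 9 of these 30, against 0 of the 37. For the 37 this held in both interaction tests of the main fit, which passed in 6.03 and 12.7% of all genes. It depended on the fit: with the code set as a term the F test called 9 of the 37, and 25.1% of all genes. No value from that fit is given here for the 30, so the contrast of 9 with 0 is not shown to hold there. Differences between these lists were not tested.

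Markers of leaf cell types moved as well, and their part in the changes of the 37 genes was not tested. The tissue label was met: the mesophyll markers RBCS1A, LHCB2.1, RCA and LHCA1 were present in all 96 libraries, while no root marker (COBL9, RHD6, CASP1) exceeded 1.12 CPM and no flower marker (AG, AP3, PI) exceeded 0.783 CPM in any library. Mesophyll markers fell in 4 of 4 cases with light and rose in 4 of 4 with nitrate, and their summed level ran from 9187 to 48785 CPM in high-light and from 7014 to 50331 CPM in low-light libraries, with medians of 15001 and 38866 CPM. Epidermal markers fell in 4 of 4 with light, with summed medians of 220 CPM in high light (range 51.4 to 385) and 512 CPM in low light (128 to 777). With nitrate 3 of the 4 rose, PDF1, CER1 and FDH, and the summed medians were 360 CPM at 20 mM (106 to 777) and 209 CPM at 2 mM (51.4 to 699.8). PDF1 was near the floor, with a median of 1.02 CPM and 0 counts in 19 of 96 libraries. CER1 varied widely, from 0 counts in 3 libraries to 263 CPM. Guard cell markers passed in 0 of 3 with light and 0 of 3 with nitrate. Vascular markers fell in 2 of 3 with light and rose in 2 of 3 with nitrate. Cell division genes fell in 12 of 12 with light (median log2 change -0.93) and rose in 12 of 12 with nitrate (1.34). By comparison 28.7% of all tested genes fell with light and 28.7% rose with nitrate. Counts of 133 loci of the chloroplast genome made up a median of 2.12% of each library in high light and 3.41% in low light, and 3.59% at 20 mM and 2.51% at 2 mM nitrate. Without those loci in the totals and the fit, 36 members again fell with light and 37 rose with nitrate, against 28.7 and 28.6% of all genes.

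The genes whose level across the 96 libraries was most like the mean of the 37 are a description only. Among 14407 other genes averaging 5 CPM or more, the highest Pearson r was 0.99 for YLMG2 (AT5G21920), of the YGGT family. Next were an amidase family gene (AT3G25660) and a YbaB family gene (AT2G24020), both at 0.98. At 0.98 too stood a thylakoid lumen protein gene (AT5G52970), ROC4 (AT3G62030), which encodes a rotamase, AT5G22340, the thioredoxin superfamily gene AT3G11630 and AT5G14910. For the members, r with the same mean ran from 0.95 in PRPS1 to 1.00 in PRPL17, and the median over all genes compared was -0.13. Members contribute to that mean, so their r is not on an equal footing with that of the other genes.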

How the data were processed

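PolyA RNA of 96 libraries was sequenced. The authors deposited 1 table of whole-number read counts per locus, made with STAR 2.5.3a and featureCounts on TAIR10, per the submitters' processing notes. The sources used here do not give the featureCounts version, strand setting, annotation release or filters. Library totals were 9461056 to 18125373 counts, and the smallest count of a member was 200. The spread between plants (common biological coefficient of variation 0.424) bore more on the precision than counting error did.

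The counts were fitted with edgeR 4.0.16 in R 4.3.3 (TMM scaling, filterByExpr, robust quasi-likelihood test, 12 group means, 84 residual degrees of freedom). P-values were Benjamini-Hochberg adjusted over 19498 genes, and a call needed an adjusted p under 0.05. Levels are CPM on the TMM scale, and ± is the standard error. Alternatives used DESeq2 1.42.0, limma-voom 3.58.1, other scalings, no filter, a replicate or code set term, and subsets of libraries. The code was tested on simulated data.

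The members and lists were chosen with earlier results of these data known. Values by group are given for the 5 members with the largest and the 5 with the smallest called change per main comparison, members not called, PRPL12 and PSRP genes. From other lists, up to 3 genes with the smallest p and genes against the majority could be named. No 2 libraries agreed within sampling noise (chi-square over degrees of freedom at least 6.50).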

Additional observations from a re-analysis of the deposited data

Results flagged for a closer look

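The highest or lowest plant of each group of 8 was compared with its neighbour for the summed share and for the 21 genes described by group, 264 groups in all. In 48 of them 1 plant stood apart from the other 7, against about 1 in 20 from chance alone. The genes move together, so these are few independent events: 4 plants account for all of them, and each stood above its group.

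Plant 7 of mid light with 2 mM nitrate had a summed share of 1.05% of counts, the next plant 0.553%. Of all 37 genes, 35 stood apart in it. Its levels in CPM were PRPS6 308, PRPS9 231, PRPS21 279.9, PSRP2 276, PSRP3/1 280.5, PSRP4 179, PRPL1 528, PRPL4 357, PRPL5 252, PRPL6 410.1, PRPL10 295, PRPL12A 351, PRPL12C 355, PRPL13 361, PRPL24 351, PRPL31 269, PRPL34 203, PSRP5 332 and PSRP6 184. The plant belongs to code set 4.

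Plant 8 of high light with 10 mM nitrate had a summed share of 1.24%, the next plant 0.637%, and all 37 genes stood apart in it. Its levels in CPM were PRPS1 600.5, PRPS6 384, PRPS9 301, PRPS21 347, PSRP2 328, PSRP3/1 342, PSRP4 218, PRPL1 628, PRPL4 442, PRPL5 321, PRPL6 476, PRPL10 371, PRPL12A 412, PRPL12C 463, PRPL13 482, PRPL24 449.8, PRPL29 445, PRPL31 349, PRPL34 279.9, PSRP5 397 and PSRP6 229. It also belongs to code set 4.

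Plant 8 of high light with 2 mM nitrate stood apart in 11 of the 37 genes. Its levels in CPM were PRPS6 149, PRPS21 121, PRPL29 247, PRPL34 98.9 and PSRP5 164. Plant 5 of low light with 20 mM nitrate stood apart for PSRP3/1 alone among the 37, at 357 CPM. What set these plants apart was not tested.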

How the results depend on the processing

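The counts of 36 genes lower with light and 37 higher with nitrate stayed within 1.5 times under every setting over all libraries, without code set 1, without chloroplast genome loci and without either outlying plant. Values below are numbers of the 37 genes that passed unless a total of tested genes is named, and the cause of each shift was not tested. Within code sets 1 to 4 there passed 2, 37, 36 and 9 (high against low light), 0, 37, 0 and 0 (mid against low), 0, 2, 3 and 0 (high against mid), 0, 33, 9 and 0, 0, 29, 18 and 2 and 0, 36, 0 and 0 for high against low at 2, 5 and 10 mM, and 0, 0, 0 and 0, 17, 37, 35 and 0 and 11, 2, 37 and 3 for 20 against 2 mM in low, mid and high light. Of 19619, 19542, 19354 and 19264 genes tested there, 288, 3177, 2686 and 461 fell at 2 mM. At 5 mM 1003, 2231, 2394 and 1384 of them fell, and at 10 mM 263, 1680, 488 and 2. With nitrate 3, 0, 0 and 0 of them rose in low light and 754, 4859, 1276 and 0 in mid light. In high light 2555, 711, 3515 and 1164 rose. For 20 against 10 mM in high light 1 passed within code set 1 (403 of 19619 genes), and for any interaction 16 within code set 2 (10.2% of all genes). These sets hold 24 libraries each. Scaling by totals alone gave 8 for high against mid, 7, 20 and 11 at 2, 5 and 10 mM, and 12 for nitrate in low light. Of 19498 genes, 1887 then fell for high against mid and 2397, 2220 and 1020 at these doses. With nitrate in low light 454 of them rose. Without a filter on low counts the values were 0 for mid against low, 13 at 10 mM and 1 for nitrate in low light. Of 28025 genes, 1551 then fell for mid against low and 1758 at 10 mM, and 560 rose with nitrate in low light. Limma-voom gave 8 for the mid to low difference, 15 for the high to mid one, 13 for nitrate in low light and 3 for 20 against 10 mM in high light, and DESeq2 16 for nitrate in low light. Of 19498 genes limma-voom called 1971 lower for mid against low and 3207 lower for high against mid. With the code set as a term the values were 31 for mid against low, 36 at 10 mM, 37 for nitrate in low light, 33 for 20 against 10 mM and 9 for any interaction. In that fit 3003 of 19498 genes fell at 10 mM. Without code set 1 the values were 12 for mid against low, 36 and 36 at 2 and 10 mM and 10 for nitrate in low light. Of 19327 genes, 2473 then fell at 10 mM and 793 rose with nitrate in low light. Leaving out plant 7 of mid light with 2 mM, or plant 8 of high light with 10 mM (both chosen after the data were seen), gave 27 or 3 for the mid to low difference, 10 or 36 for high against mid, 22 or 36 at 10 mM, 19 or 15 for nitrate in low light, 0 or 35 for 20 against 10 mM and 1 or 0 for any interaction. Of 19574 genes, 2960 or 3861 then fell for high against mid and 2215 or 3013 at 10 mM. For 20 against 10 mM 596 or 1815 of them rose, and any interaction was called in 3494 or 3101. PRPS1 alone changed sign for light, to 0.026 with totals alone and 0.13 within code set 1.

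Plants of different groups with the same replicate number are not stated to be paired, so the number is not treated as a pairing. Their deviations correlated at a median of 0.23 with a lowest r of -0.52. For plants of different groups and numbers the median was -0.02, and within the same code set it was 0.25. Of 96 libraries, 27 were closest to their own number. With the replicate number as a block, the counts were 37 for light, 37 for nitrate, 31 for mid against low, 35 at 10 mM, 37 for nitrate in low light, 33 for 20 against 10 mM and 7 for any interaction. Of all 19498 genes, 5956 fell with light, 6041 rose with nitrate, 2765 fell for mid against low and 2900 at 10 mM. Nitrate in low light raised 1437 genes and 20 against 10 mM in high light 1331, and any interaction was called in 4610. No other count of the 37 genes moved by more than 1.5 times with the block. Standard errors of the nitrate change in high light minus that in low light ran from 0.30 in PRPS1 to 0.59 in PRPL15, which limits what that comparison can show.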
